A study of Mus musculus with 27 samples.

Results

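The response to MOF siRNA shared by 3 mouse embryonic stem (ES) cell lines was described from 14 of the 27 expression arrays of the series. These were the 7 pairs of a MOF siRNA array and the control siRNA array of the same line and experiment number, with 3 pairs from PGK12.1, 2 from WD44 and 2 from E14. The female PGK12.1 cells came from blastocysts of a 129 dam mated to a (129 X PGK)F1 sire. WD44 is a male line from BL6 blastocysts, and E14 is here a male hybrid line of a BL6 mother and a Cast father. All cells were grown undifferentiated with LIF on embryonic fibroblast feeders, which were depleted on gelatin before transfection. Each arm received 100 pmol of siRNA for 48 h, and in PGK12.1 pairs 1 and 2 both arms were transfected again with 400 pmol and kept for 24 h more. The controls received Invitrogen negative control siRNA. The labels number the pairs of 1 line as separate RNAi experiments and do not say that they came from separate cultures, so p-values measure the spread between these experiments and lines, which may in part be technical. The other 13 arrays were PGK12.1 cells of experiments A to E, with control siRNA (5 arrays), MSL1 siRNA (3), siRNA labelled NSL1 (3) or MOF and MSL1 siRNA together (2).

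MOF, encoded by Kat8, acetylates lysine 16 of histone H4, a mark of open chromatin. It works in the MSL complex, the counterpart of the fly dosage compensation complex, and in the NSL complex, which is known to sit at promoters of widely expressed genes. In ES cells MOF is known as a factor needed for the stem cell state.

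Kat8 (probeset 10557831) fell in every pair. Its level in control arrays of PGK12.1 pairs 1 to 3 was 8.42, 8.47 and 9.05 on the log2 scale, and in the MOF siRNA arrays 7.05, 7.23 and 7.99. In WD44 it went from 10.62 to 9.67 and from 10.53 to 9.80, and in E14 from 9.32 to 8.56 and from 9.39 to 8.80. Each MOF siRNA array lay below its own control, and the control levels of the 3 lines did not overlap. Medians of whole control arrays stepped as well, at 6.22 to 6.47 in PGK12.1, 7.89 and 7.9 in WD44, and 6.78 and 6.76 in E14. Kat8 levels are therefore not compared between lines. The transcript left was 38.7%, 42.3% and 48% in PGK12.1, 51.8% and 60.3% in WD44, and 59% and 66.4% in E14. The knockdown was therefore partial in all lines and deepest in PGK12.1. The mean paired difference was -0.96 (SE 0.08, n = 7 pairs, limma adjusted p = 0.000211). An exact two-sided sign-flip test over the 7 differences gave p = 0.015625, the smallest it can give.

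**Figure D1:**
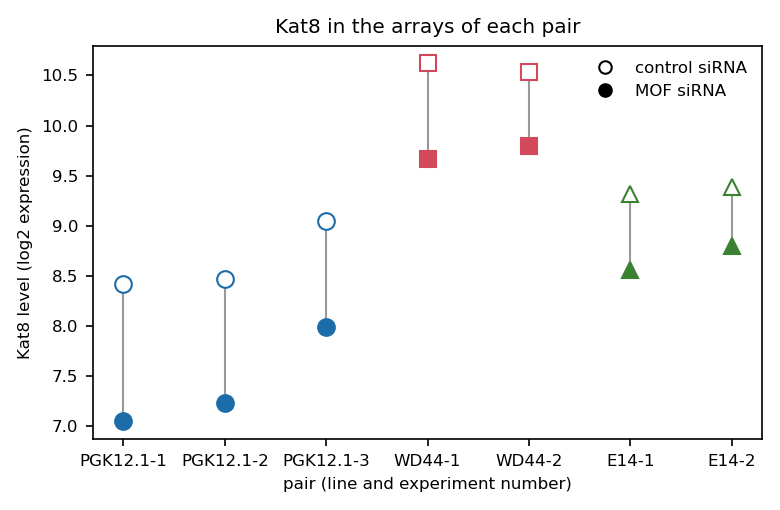
Kat8 level (log2 expression, vertical axis) in the control siRNA array (open) and the MOF siRNA array (filled) of each of the 7 pairs (horizontal axis), joined by a line and coloured by cell line. Every filled symbol lies below its open partner, with differences from -1.37 in PGK12.1 pair 1 to -0.59 in E14 pair 2.

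The partners of MOF moved little. Of the other 3 MSL complex genes tested, Msl1, a scaffold subunit, rose by 0.15 (adjusted p = 0.0268), while Msl2 stood at -0.01 and Msl3 at -0.05. Of the other 8 NSL complex genes tested, Kansl2 rose by 0.22 (adjusted p = 0.00363), and Kansl1 stood at 0.13 (adjusted p = 0.0506). Under array median centring 4 genes were called higher of the 9 NSL genes, a number that counts Kat8, which fell. None of the 9 other MYST acetyltransferases and H4K16 deacetylases tested passed, with differences from -0.09 for Sirt2 to 0.06 for Kat6a.

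A probeset was called shared where limma's paired test gave an adjusted p under 0.05 and the difference had 1 sign in all 7 pairs. By this rule 2249 of 16911 probesets were shared (13.3%), of which 742 were higher (4.39%) and 1507 lower (8.91%) after MOF siRNA. Counted with 1 probeset per gene, these were 668 higher (4.59%) and 1380 lower (9.48%) of 14555 genes. The changes were small. Only 169 of the higher and 575 of the lower probesets reached a mean of 1.2-fold, and 4 and 19 reached 1.5-fold. The median difference of the higher set ran from 0.16 to 0.25 over the pairs and that of the lower set from -0.27 to -0.19, as the rule required in sign. In bulk RNA such as this, fewer cells of a type and less RNA per cell cannot be told apart.

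The split between the directions depended on scaling. Of the shared probesets 67% were lower with the deposited values, 55.3% after cyclic loess, 54.7% after quantile normalization over the 14 arrays, and 30.4% with array medians centred, which moved the median of all tested differences from 0.003 to 0.053. With probesets split into 3 equal parts by level, those of the lowest part had a median difference of 0.05, with 273 shared higher and 264 shared lower. In the middle part the median was -0.03, with 262 and 801, and in the top part -0.01, with 207 and 442. Over all genes, 11.9% were shared higher and 5.5% lower with array medians centred, 6.3% and 8% after cyclic loess, and 6.2% and 7.7% after quantile normalization. Counts of gene groups under another scaling are to be read against these shares.

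The 15 largest rises and falls are shown in the dot plot of the largest shared differences. After Kat8, the largest fall was that of Zfp300, an X-linked zinc finger gene. Its differences were -0.87, -1.01 and -0.93 in PGK12.1, -0.58 and -0.65 in WD44, and -0.89 and -0.76 in E14. The mean was -0.81 (SE 0.05, adjusted p = 6.12e-05), with similar size in all lines. Its level was low, at 5.97 to 7.26 in control arrays and 5.08 to 6.61 in MOF siRNA arrays. Anpep, the cell-surface aminopeptidase N, differed by -0.60, -0.57 and -0.80 in PGK12.1, by -0.40 and -0.58 in WD44 and by -1.03 and -0.97 in E14, the largest falls being in E14 (mean -0.71, SE 0.07, adjusted p = 0.000278). Tbc1d7, a subunit of the TSC complex that restrains mTORC1, fell by 0.68 on average but by only 0.10 in E14 pair 1. Atg4a, a protease that processes ATG8 proteins in autophagy, fell by 0.64. Lipa, the lysosomal acid lipase, fell by 0.64 and the kinase gene Stk26 by 0.62. Zc4h2, a zinc finger gene, fell by 0.62 with all 7 pairs between -0.75 and -0.47. Tbc1d19 fell by 0.59, and the zinc finger genes Zfp72, Zfp931, Zfp759, Zfp280c and Zfp442 by 0.65, 0.65, 0.61, 0.60 and 0.59.

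**Figure D2:**
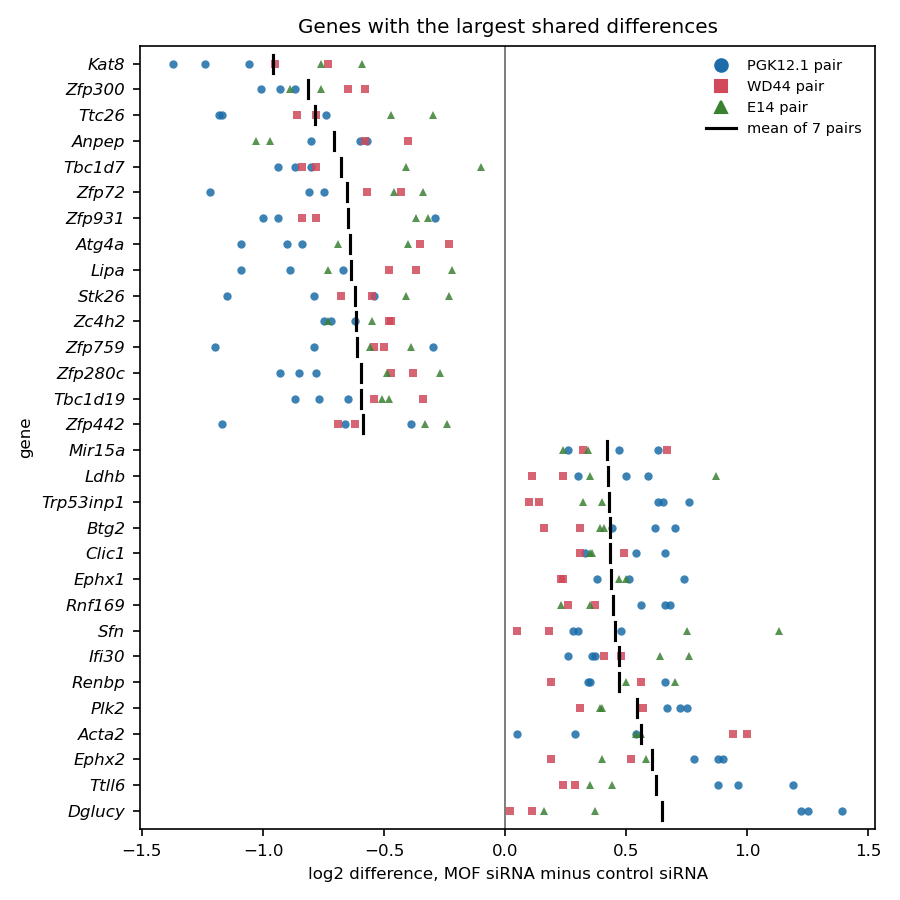
Log2 difference of MOF siRNA minus control siRNA (horizontal axis) in each of the 7 pairs, as points shaped and coloured by line, for Kat8, the 14 next largest shared falls and the 15 largest shared rises (vertical axis). Black bars are means of 7 pairs. The mean runs from -0.96 for Kat8 to 0.65 for Dglucy, whose PGK12.1 points lie at 1.22 to 1.39 and whose other points lie at 0.02 to 0.37.

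The largest rise was that of Dglucy, a mitochondrial D-glutamate cyclase. The PGK12.1 pairs stood at 1.25, 1.22 and 1.39, those of WD44 at 0.11 and 0.02 and those of E14 at 0.16 and 0.37, so that its mean of 0.65 was carried by 1 line. It no longer passed without PGK12.1 pair 2 (adjusted p = 0.059) or pair 3 (0.0511). Ttll6, a tubulin polyglutamylase, rose by 0.62, with 0.88 to 1.19 in PGK12.1 and 0.24 to 0.44 in the male lines. The epoxide hydrolases Ephx2 and Ephx1 rose by 0.61 and 0.44. Acta2, the smooth muscle actin, rose by 0.56, most in WD44 (0.94 and 1.00) and least in PGK12.1 pair 2 (0.05). Renbp, an N-acetylglucosamine epimerase, rose by 0.47, and Ifi30, a lysosomal thiol reductase, also by 0.47. Sfn, the 14-3-3 sigma protein, rose by 0.45 and was highest in E14 (1.13 and 0.75). Rnf169, which binds ubiquitin at DNA breaks, rose by 0.44, the chloride channel protein gene Clic1 by 0.43, and Ldhb, a lactate dehydrogenase subunit, by 0.42.

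The steadiest shared genes were taken as those whose smallest difference over the 7 pairs was largest. Plekhb1, which encodes a pleckstrin homology domain protein, differed by -0.67 to -0.46 (mean -0.53, SE 0.04, adjusted p = 7.56e-05). Neil3, a DNA glycosylase, differed by -0.56 to -0.38 (mean -0.49, SE 0.04, adjusted p = 0.000122). Fn3krp, a protein deglycation kinase, fell by 0.51 with a range from -0.68 to -0.37, and Arxes1 by 0.56 with a range from -0.75 to -0.38. Among rises, Wdr45, a phosphoinositide-binding autophagy protein, stood between 0.26 and 0.38 (mean 0.31), and Cd68, a lysosomal membrane glycoprotein, between 0.24 and 0.54 (mean 0.41). Commd3 rose by 0.37 and Rnf213, a large ubiquitin ligase, by 0.41, and neither was under 0.24 in any pair. By this choice the genes had no pair near 0 in any line.

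The probeset named Mir15a rose by 0.42 (SE 0.06, adjusted p = 0.000989), with 0.47, 0.63 and 0.26 in PGK12.1, 0.32 and 0.67 in WD44, and 0.34 and 0.24 in E14. All 7 differences were at least 0.24. miR-15a is known to target cell cycle and survival genes, and such a probeset does not tell the precursor from the mature strand. The mature 5p strand lies at chr14:61632075-61632096 on the minus strand (GRCm38.p6, RefSeq). It is shown with the seed, bases 2 to 8 that pair with targets, in capitals.
mmu-miR-15a-5p: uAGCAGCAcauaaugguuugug

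Genes of the primary cilium fell as a group in count. The cilium is built by intraflagellar transport (IFT) trains driven by kinesin and dynein motors, the BBSome carries membrane cargo, and the transition zone gates its base. Of 53 ciliary genes tested from both lists, 34 fell (64.2%), 1 rose and 18 did not pass. Among all genes 9.48% were shared lower. This list and the others below were chosen with earlier results of these data known, so such shares are descriptive. The median difference of the 53 genes was -0.23, against 0.003 over all genes, and ran from -0.31 to -0.16 over the pairs. The lists kept these counts under every scaling, with 14 to 17 of 27 IFT and motor genes and 16 to 19 of 27 BBSome, transition zone and basal body genes shared lower, Ttc26 standing in both.

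Ttc26 (IFT56), a subunit of IFT complex B, fell most. Its control levels were 7.49, 7.70 and 8.05 in PGK12.1, 9.58 and 9.65 in WD44, and 8.36 and 8.66 in E14. After MOF siRNA they were 6.75, 6.52 and 6.88, then 8.72 and 8.87, then 8.06 and 8.19. Every MOF siRNA array was below its control, with differences from -1.18 to -0.30 (mean -0.79, SE 0.09, adjusted p = 0.000593). Kif3a, the motor subunit of the kinesin that carries trains outward, differed by -0.48, -0.82 and -0.91 in PGK12.1, -0.42 and -0.27 in WD44 and -0.48 and -0.25 in E14. Its partner Kif3b fell by 0.26 and the accessory subunit Kifap3 by 0.29. Of the return motor, the dynein-2 light intermediate chain gene Dync2li1 fell by 0.42, and Dync2h1, the heavy chain, stood at -0.18 with 1 pair at 0. Further complex B members that fell were Ift57 (-0.45), Ift88 (-0.36), Ift74 (-0.36), Ift22 (-0.32), Ift172 (-0.31), Ift81 (-0.29) and Ift80 (-0.21). In complex A, Wdr19 fell by 0.46, Ttc21b by 0.35 and Ift122 by 0.23. Ift20, Ift52 and Wdr35 stood at 0.03 to 0.04 and did not pass.

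Of the BBSome, Ttc8 (BBS8) fell by 0.53, with -0.66, -0.31 and -0.88 in PGK12.1, -0.57 and -0.39 in WD44, and -0.54 and -0.33 in E14. Bbs5 fell by 0.51, Bbs7 by 0.38, Bbs9 by 0.33, Bbs2 by 0.32 and Bbs4 by 0.30. Bbs1 stood at -0.22 and missed the rule because 1 pair was at 0. Of the transition zone, Rpgr, an X-linked gene mutated in retinal degeneration, fell by 0.52, Cep290 by 0.48, Rpgrip1l by 0.47, Tmem67 by 0.42, Tctn3 by 0.34 and Tctn2 by 0.25. Cep290 lay between -0.62 and -0.29 and Tmem67 between -0.59 and -0.24, without a weak pair. Tmem231, another transition zone gene, rose by 0.19 in all lines, the only ciliary gene to do so.

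**Figure D3:**
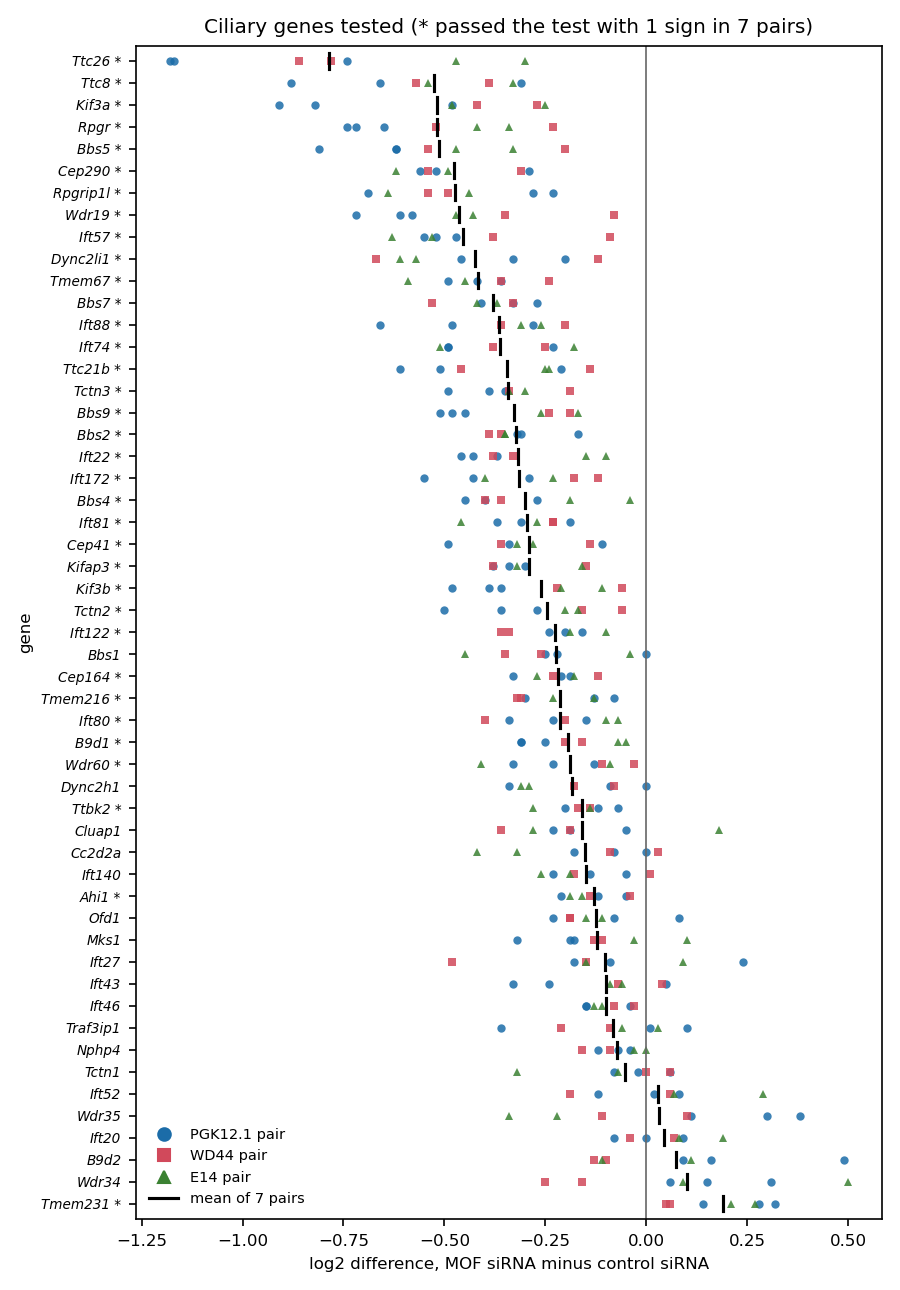
Log2 difference of MOF siRNA minus control siRNA (horizontal axis) in each pair for the 53 ciliary genes tested (vertical axis), ordered by the mean of 7 pairs (black bars), with points shaped and coloured by line. A star marks the 35 genes that passed the test with 1 sign in 7 pairs, 34 of them below 0 and Tmem231 above.

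RFX factors are known to drive ciliary genes through the X-box, a palindromic promoter motif. The promoter window, 250 bases before to 50 after each RefSeq start (GRCm38.p6), was present for 48 of the 53 genes. A match to the RFX X-box on either strand was found in 8 of these (16.7%), against 1.6% of all 27025 RefSeq promoters. It was found in 5 of the 29 windows of ciliary genes that were shared lower (17.2%). The matches of 4 genes lie before the start and are shown with the X-box in capitals, as the sequence these members share. They are Cep41 (chr6:30693821-30693925, minus strand, 131 to 117 bases before the start), Ift57 (chr16:49699189-49699291, plus strand, 60 to 48 bases), Tctn2 (chr5:124598642-124598745, plus strand, 62 to 49 bases) and Tctn3 (chr19:40612314-40612416, minus strand, 140 to 128 bases).
Cep41: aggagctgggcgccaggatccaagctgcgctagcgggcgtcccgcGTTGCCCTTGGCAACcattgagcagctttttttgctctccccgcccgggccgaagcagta
Ift57: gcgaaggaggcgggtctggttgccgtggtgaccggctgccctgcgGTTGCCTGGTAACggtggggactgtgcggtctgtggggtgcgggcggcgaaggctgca
Tctn2: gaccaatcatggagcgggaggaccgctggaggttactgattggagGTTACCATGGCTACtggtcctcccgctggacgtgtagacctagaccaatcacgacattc
Tctn3: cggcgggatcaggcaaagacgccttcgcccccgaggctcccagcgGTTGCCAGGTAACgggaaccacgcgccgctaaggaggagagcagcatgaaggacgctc
Ift57 with its X-box fell by 0.45, Tctn3 by 0.34, Cep41 by 0.29 and Tctn2 by 0.25, while Ttc26 and Kif3a, which fell more, had no match in the window. A match is a description of the letters and not a bound site.

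Targets of p53, the transcription factor that responds to DNA damage and other stress, moved upward. Of 26 tested, 11 rose (42.3%), none fell and 15 did not pass, where 4.59% of all genes were shared higher. Their median difference was 0.22. The count was 9 to 14 under the other scalings and 6 of 26 without PGK12.1 pairs 1 and 2. Plk2, a polo-like kinase gene, had control levels of 8.77, 8.91 and 9.78 in PGK12.1, 10.35 and 10.26 in WD44, and 7.33 and 7.39 in E14. It differed by 0.75, 0.72 and 0.67, then 0.31 and 0.57, then 0.39 and 0.40, with every MOF siRNA array above its control (mean 0.54, SE 0.06, adjusted p = 0.000369). Btg2, an antiproliferative gene, rose by 0.43 and Trp53inp1, a stress-induced p53 cofactor, by 0.43. The WD44 pairs were weakest for Trp53inp1, at 0.14 and 0.10, where PGK12.1 stood at 0.63 to 0.76. Pidd1, a death domain gene, rose by 0.35, Phlda3, an Akt repressor, by 0.34, the translesion polymerase gene Polk by 0.32, Ccng1 by 0.27, the death receptor gene Eda2r by 0.25 and the nuclease gene Aen by 0.24. Ptprv rose by 0.28 and Bbc3 (PUMA) by 0.15, and Bbc3 lost its call when any of 5 pairs was left out. Mdm2, the p53 ubiquitin ligase, stood at 0.23 with both WD44 pairs below 0, and Ddit4 at 0.27 with WD44 and E14 pairs of either sign.

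**Figure D4:**
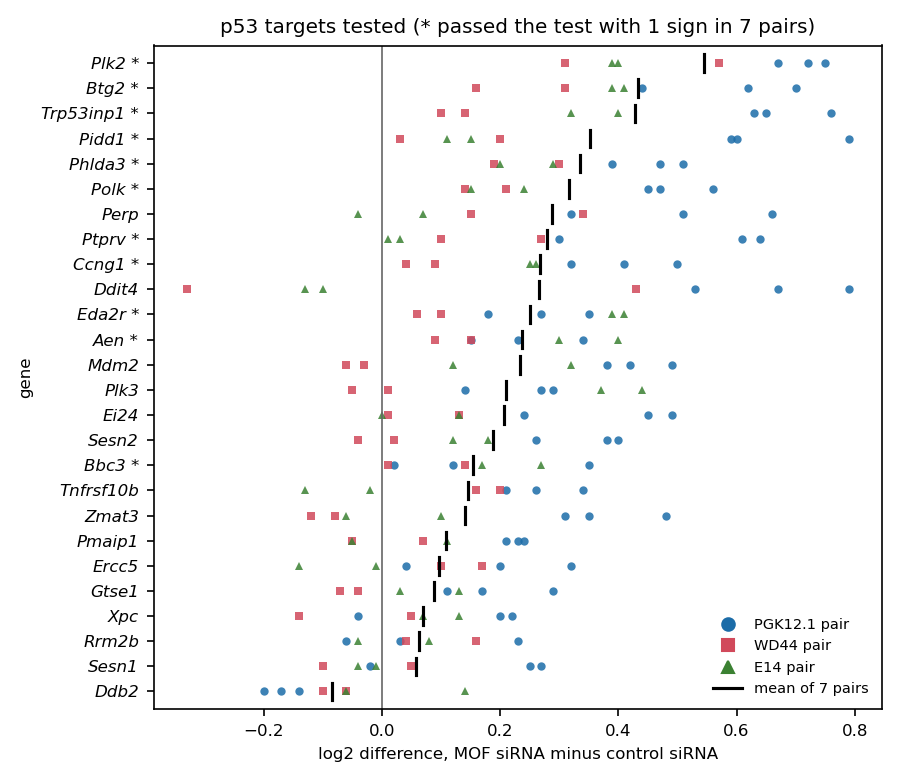
Log2 difference of MOF siRNA minus control siRNA (horizontal axis) in each pair for the 26 p53 targets tested (vertical axis), ordered by the mean of 7 pairs (black bars), with points shaped and coloured by line. A star marks the 11 genes that passed the test with 1 sign in 7 pairs, from 0.54 for Plk2 to 0.15 for Bbc3. PGK12.1 points lie to the right of the other lines for most genes.

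Other growth and death genes moved one by one. Casp8, the initiator caspase of death receptors, fell by 0.44, and with Bbc3 it was 1 of 2 genes of 19 in the BCL2 and caspase list to pass. The stress factors Atf3 and Ddit3 rose by 0.31 and 0.20, and were the 2 of 27 genes tested from the list on ATF4 signalling and unfolded proteins that were shared (6 with array medians centred). Of 38 DNA repair genes 6 fell, among them Brca2 by 0.27, Fancd2 by 0.22 and Fancb by 0.21, and 2 rose, one of them Fanci by 0.22. Of 30 replication origin genes 3 fell, Orc3 by 0.28, Prim2 by 0.24 and Gins3 by 0.18. Of 30 mitotic genes, the kinesin gene Cenpe fell by 0.20 and the survivin gene Birc5 rose by 0.14. Of the DNA repair genes 15.8% were thus shared lower, against 9.48% of all genes, and 3 of 38 were with array medians centred. That scaling also called 1 replication origin gene lower and 4 mitotic genes higher, and no replication origin gene was called without PGK12.1 pairs 1 and 2.

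Lysosomal and nutrient-sensing genes went both ways. Of 35 lysosomal genes 6 rose (17.1%, against 4.59% of all genes) and 4 fell (11.4%, against 9.48%). Lamp2, a membrane protein, rose by 0.35, Npc2, a cholesterol carrier, by 0.28, and Ctsd, the protease cathepsin D, by 0.26, while Lipa fell by 0.64. Of 35 autophagy genes Wdr45 and Sqstm1 rose (5.7%) and Atg4a, Atg4c and Nbr1 fell (8.6%), shares near those of all genes. Under the other scalings 5 to 7 of them were called higher. Of 27 genes of the TSC complex and mTORC1 regulators, Tbc1d7 fell by 0.68 and Mtor, the kinase itself, by 0.18, and Rptor, its partner, by 0.14, while Flcn, a regulator of Rag GTPases, rose by 0.26 and the mTORC1 inhibitor Akt1s1 by 0.20. Tsc1 and Tsc2 did not pass. These 2 higher (7.4%) and 3 lower calls (11.1%) became 4 or 5 and 2 under the other scalings, and no gene was called higher without PGK12.1 pairs 1 and 2.

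Zinc finger genes named Zfp, most of which encode DNA-binding proteins, were shared lower in 55 of 319 (17.2%, against 9.48% of all genes) and higher in 8 (2.5%, against 4.59%). The median difference of the 319 was -0.07. Lower calls numbered 45 to 57 and higher calls 4 to 22 under the alternative scalings, filter and sample set. Zfp449 fell by 0.50, Zfp185 by 0.46 and Zfp39 by 0.42 beside the 6 among the largest falls. Many such genes share similar repeats, and whether probesets of neighbouring copies cross-hybridize was not tested.

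Most metabolic lists gave few calls, where 4.59% of all genes were shared higher and 9.48% lower. Of 23 peroxisomal genes 5 fell (21.7%), and 3 did so with array medians centred or after cyclic loess. Among the 5 were Pex11a, a division factor, by 0.57, Phyh, a phytanic acid hydroxylase, by 0.30 and Hacl1, a lyase of the same pathway, by 0.28. Ephx2 was the one peroxisomal gene that rose. Of 77 mitochondrial ribosome genes 11 fell (14.3%), led by Mrpl42 by 0.35 and Mrps17 by 0.34, and Mrps12 rose by 0.17. Only 5 to 7 of the 77 fell under the other scalings. Of 44 complex I genes 3 fell, with Ndufs4 lowest (-0.42), and of 44 genes of complexes II to V only Cox15 fell (-0.22), while 6 were called higher with array medians centred and 2 after each other scaling. Of 34 tRNA synthetase genes 5 fell, led by Lars2 (-0.28) and Nars2 (-0.25), and 2 did so under each other scaling. In sterol synthesis Hsd17b7 fell by 0.21, alone among 19. Of 60 cytosolic ribosome genes only Rpl39l rose (0.37) with the deposited scaling, against 10 (16.7%) with array medians centred and 5 after cyclic loess or quantile normalization. Of 51 small nucleolar RNAs 6 rose (11.8%), led by Snora75 (0.37), Snord104 (0.27) and Snord16a (0.24), but 1 did so without PGK12.1 pairs 1 and 2. Of 22 glycolysis and hypoxia genes only Egln3 fell, by 0.41 on average and 1.23 in WD44 pair 1. Of 33 glutathione and redox genes 4 fell, namely Gstm5 (-0.54), Gstm7 (-0.28), Gstt3 (-0.28) and Gstm2 (-0.20), and 2 rose, Gpx2 (0.38) and Gsta3 (0.19). Without PGK12.1 pairs 1 and 2 only 1 was called lower and none higher, and 5 were called higher with array medians centred.

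The pluripotency network changed little. Of 31 naive and core pluripotency genes, Tcl1 rose by 0.18 and Utf1 fell by 0.17, and the median of the list was -0.001. Pou5f1 stood at 0.004, with a level of 12.05 to 12.96 in controls and 11.97 to 12.90 after MOF siRNA. Nanog stood at -0.09 and Sox2 at -0.10, and neither passed. Genes of Nodal signalling and the primed epiblast gave 5 falls (29.4%, against 9.48% of all genes) and 1 rise among 17. Lefty2, a Nodal antagonist and target, differed by -0.28, -0.44 and -0.57 in PGK12.1, -0.82 and -0.67 in WD44, and -0.32 and -0.35 in E14, lowest in WD44 (mean -0.49, SE 0.06, adjusted p = 0.000738). Its paralog Lefty1 fell by 0.35 and the methyltransferase gene Dnmt3b by 0.23, while the signal transducer gene Smad3 rose by 0.18. The number of falls was 2 or 3 under the other scalings and 1 without PGK12.1 pairs 1 and 2.

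With the deposited scaling few lineage markers passed, where 4.59% of all genes were shared higher and 9.48% lower. Krt7 rose by 0.18 (1 of 19 trophectoderm genes), Sparc by 0.19 (1 of 17 primitive endoderm genes) and Foxf1 by 0.14 (1 of 15 mesoderm genes). With array medians centred 4, 4 and 5 of these lists were called higher (21.1%, 23.5% and 33.3%, against 11.9% of all genes), and cyclic loess called 4 trophectoderm genes higher. Of 14 neural genes Map2 fell by 0.30 and Elavl3 by 0.16 (14.3%), and 1 was called lower under each other scaling. None of 6 genes of the 2-cell-like state passed. Acta2, Tpm1 and Lats2 rose and Vcl fell among 27 targets of SRF and YAP, of which 5 or 6 were called higher under the other scalings. Of 16 interferon response genes Ifitm1 and Ifitm3 rose by 0.32 and 0.19 and Myd88, a Toll-like receptor adaptor, fell by 0.55. Of 11 genes of class I antigen presentation tested, Tapbp and Nlrc5 were shared higher (18.2%), by 0.35 and 0.21. The value of Nlrc5 is that of 1 probeset, and 3 of its 15 tested probesets were shared higher. Of 9 genes of small RNA silencing, Prkra fell by 0.35 and Dicer1 by 0.17 (22.2%), and 1 was called lower with array medians centred.

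Feeder fibroblast markers were present in the arrays. Of 18 tested, Acta2 and Col5a2 were shared higher (11.1%) and none lower, and 5 were higher with array medians centred. The summed level of the 23 markers on the array was 1824 to 11799 in control arrays and 1850 to 15581 in MOF siRNA arrays on a linear scale. The ratio within a pair ran from 0.97 to 1.32 and was above 1 in 6 of 7 pairs. That sum includes Acta2, one of the largest rises. For the 8 markers set for feeder fibroblasts, without Acta2, the ratio ran from 0.96 to 1.2 and was above 1 in 6 pairs. Of these 8, the collagen genes Col1a1, Col1a2 and Col3a1 stood at 0.14, 0.08 and 0.17, Fbln5 at 0.06 and Thy1 at -0.02, and none was called. Postn, Dcn and Lum stood at 0.04, -0.01 and 0.05 and were under the filter. Lum lay at 4.65 or less in all controls. The part of these cells in the results was not tested.

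X-linked genes were more often lower than autosomal ones with the deposited scaling. Of 462 X-linked genes tested, 72 were shared lower (15.6%) and 12 higher (2.6%), against 1307 (9.3%) and 653 (4.6%) of 14048 autosomal genes. The medians were -0.04 and 0.003. With array medians centred, 46 X-linked genes were lower (10%) and 34 higher (7.4%), against 5.5% and 11.9% of all genes. After cyclic loess 15.6% of X-linked genes were lower and 3% higher, against 8% and 6.3% of all genes. Quantile normalization gave 14.7% and 3%, against 7.7% and 6.2%. Besides Zfp300, Atg4a, Stk26, Zc4h2 and Zfp280c, which fell most, Renbp, Lamp2, Gria3, Wdr45 and Nrk rose most, the last by 0.31. Atg4a differed by -0.84, -0.90 and -1.09 in the female line and by -0.69 to -0.23 in the male lines, and Zfp300 by a like amount in both. The lines differ in sex, strain and knockdown depth at once. Some pairs of the female line also had a further round of siRNA, which the male lines did not have. These differences between the lines cannot be told apart.

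A difference in size between lines was called for few probesets, whether shared or not, in a test with 4 residual degrees of freedom. The rule of 1 sign in all 7 pairs also removes genes whose sign differs between lines. The line by siRNA interaction passed for 121 of 16911 probesets (0.716%). It passed for 10 of the 742 shared higher (1.3%) and 9 of the 1507 shared lower (0.6%). In the same limma test the unadjusted p was under 0.05 for 3031 of the 16911 probesets. These held 128 of the 742 shared higher and 243 of the 1507 shared lower, so genes that did not pass may still differ. The number that passed was not stable, at 1 without the filter on low values, 488 with a trended, robust variance and 0 without PGK12.1 pairs 1 and 2. Medians of the shared higher set were 0.22, 0.18 and 0.17 in PGK12.1, WD44 and E14, and those of the lower set -0.26, -0.22 and -0.20. The named genes with a line difference are Dglucy, Ttll6, Gria3, a glutamate receptor gene, Ptp4a3, a phosphatase gene, Trp53inp1, Sfn and 1700007K13Rik among those higher. Among those lower they are As3mt, an arsenite methyltransferase gene, the Y RNA gene Rny1 and Usp51, a histone deubiquitinase gene. The difference of Gria3 was 0.54 to 0.65 in PGK12.1 and 0.06 to 0.19 elsewhere, and that of As3mt -1.02 to -0.77 in PGK12.1 and -0.32 to -0.19 elsewhere. Usp51 stood at -0.84 and -0.77 in WD44, -0.76 to -0.45 in PGK12.1 and -0.12 and -0.01 in E14. Without the 3 PGK12.1 pairs 837 probesets were called in the other 4 pairs, and 608 of the 2249 remained among them.

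The shared genes were then read in the 13 PGK12.1 arrays of experiments A to E, which had no part in choosing them. The double knockdown and the NSL1 comparison share the controls of experiments D and E, so each is given by its own values. After MOF and MSL1 siRNA (2 pairs, Kat8 at -0.87), 252 of 1507 shared lower probesets were called lower (16.7%, against 2.81% of all) and none higher. Of 742 shared higher probesets 138 were called higher (18.6%, against 2.74%) and 1 lower. Without the replicate block these counts were 28 lower and 18 higher. In both pairs 76.4% of the lower set was below control, against 32.9% of all probesets, and 64% of the higher set above it, against 31.3%. The set medians were -0.15 and 0.12.

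After siRNA labelled NSL1 (3 pairs), 938 of the 1507 were called lower (62.2%, against 20.6% of all) and 68 higher. Of the 742, 347 were called higher (46.8%, against 17.7%) and 13 lower, and 197 were called higher without the replicate block. The set medians were -0.24 and 0.14. The label may stand for the NSL complex subunit Kansl1 or the kinetochore gene Nsl1, and Kat8 itself stood at 0.07 there (adjusted p = 0.239). After MSL1 siRNA limma called 3 probesets higher (0.0177%) and 5 lower (0.0296%) of 16911, and the set medians were -0.04 and 0.02. Msl1 itself stood at -0.97 there (limma adjusted p = 0.000923) and at -0.46 in the double knockdown (limma adjusted p = 0.0164). In all 3 MSL1 pairs 29.8% of the lower set was below control, against 14.8% of all probesets.

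**Figure D5:**
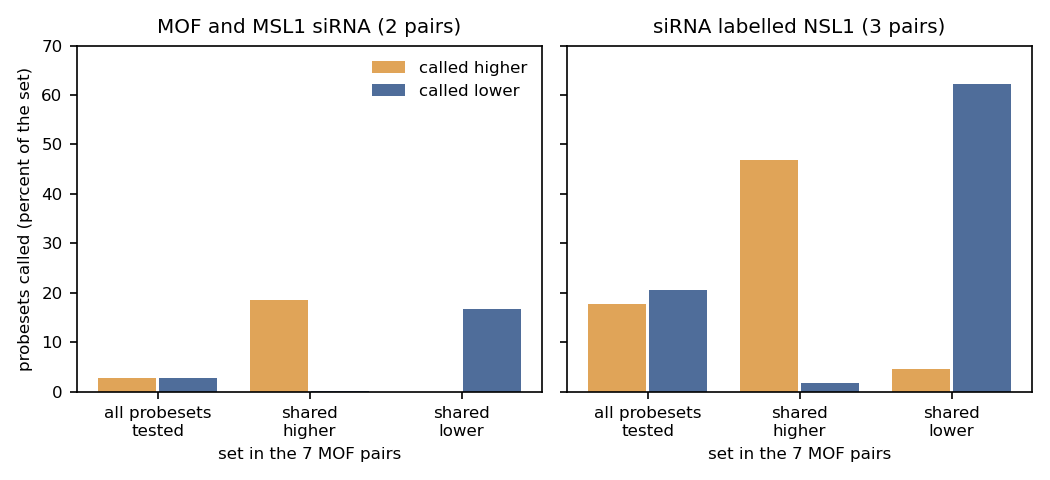
Percent of probesets called higher (orange) or lower (blue) by limma (vertical axis, from 0) after MOF and MSL1 siRNA (left panel) and siRNA labelled NSL1 (right panel), for all 16911 probesets tested and for the 742 shared higher and 1507 shared lower after MOF siRNA (horizontal axis). Shared lower probesets were called lower in 16.7% and 62.2%, and all probesets in 2.81% and 20.6%.

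Ciliary genes and p53 targets are given in the same arrays. As the lists were chosen with earlier results of these data known, the counts are descriptive and not independent support. After NSL1 siRNA 40 of the 53 ciliary genes were called lower and 3 higher, where 21.7% of all genes were lower, and 10 were lower in the double knockdown, where 2.95% of all genes were. Ttc26 stood at -1.16 and -0.59 in these comparisons, Tmem67 at -0.84 and -0.41, and Tctn3 at -0.68 and -0.43, all called. Bbs7 (-0.03 and 0.002) and Ift57 (-0.09 and -0.16) did not pass in either. Of the 26 p53 targets, 22 were called higher after NSL1 siRNA (18.1% of all genes) and 11 in the double knockdown (2.93%), and none lower. Plk2 stood at 1.21 and 0.72 and Btg2 at 0.82 and 0.34. Among the largest changes, Zc4h2 (-1.40), Atg4a (-1.26) and Tbc1d7 (-1.50) fell further after NSL1 siRNA than after MOF siRNA in value, a difference that was not tested. Acta2, Stk26, Zfp931, Clic1, Ifi30 and Sfn, also among the largest changes, did not pass after NSL1 siRNA. Nor did Usp51, a gene with a line difference. In the double knockdown Stk26, Clic1, Ifi30 and Usp51 passed, and Acta2, Zfp931 and Sfn did not.

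The median gene length and the median control level of shared lower genes were above those of all tested genes. The median gene length was 32.8 kb in the lower set, 18.6 kb in the higher set and 20.9 kb over all tested genes, and 50.7 kb for the ciliary genes. The median control level was 8.67, 7.98 and 8.26 on the log2 scale. Promoter windows were present for 1138 of the 1380 shared lower genes, but for under 80% of all tested and of shared higher genes. A comparison of motif shares between these sets is void for that reason and not given.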

How the data were processed

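Gene expression was measured on 27 Affymetrix mouse gene arrays, 14 of them used for the MOF comparison. The values deposited by the authors are log2 expression values for 35556 probesets, made with Affymetrix Expression Console and RMA (background correction, quantile normalization, probe summary) per the submitters' processing notes. Neither versions nor a genome build are given in the sources used here. Medians of the arrays differed between sets of experiments (6.22 to 7.96). Array number, not depth, limits the precision. Probesets were named from the platform annotation and RefSeq genes (GRCm38.p6): 21789 had 1 symbol, 1621 several and 12146 none.

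The main test was limma 3.58.1 in R 4.3.3 on probesets with a mean of at least 6 over the 14 arrays and a symbol (16911, of which 15899 had 1 symbol), in a design blocked by experiment that left 6 residual degrees of freedom, and Benjamini-Hochberg adjustment. All adjusted p-values are from limma. The labels give both arrays of a number the same experiment. Their deviations from the mean of their line and siRNA had correlations of 0.626 to 0.867 (PGK12.1), 0.008 (WD44) and 0.128 (E14). The PGK12.1 means mix arrays of 1 and 2 RNAi rounds, so these values cannot tell the pairing from the number of rounds. Experiments A to E were fitted with their own block (5 residual degrees of freedom). For lists each gene took its probeset of highest mean. Of 775 genes with several probesets, 95 were shared by the one used, in 35 with every probeset, and 1 had probesets shared in opposite directions.

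Named genes were Kat8, the 15 largest and 10 steadiest shared genes each way, up to 4 shared members per list, 5 X-linked genes and 5 with line differences each way, and further list members to describe a list. The members and lists were chosen with earlier results of these data known. Procedures were tested on simulated data. Alternatives covered scaling, filter, variance model, block, fold, pairs and lines.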

Additional observations from a re-analysis of the deposited data

Results flagged for a closer look

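For 10 named genes the line by siRNA interaction passed limma's test, so that the difference between MOF siRNA and control siRNA was not of 1 size in the 3 lines. The adjusted p was 0.00607 for Dglucy, 0.0212 for Ttll6, 0.0302 for As3mt, 0.0335 for Ptp4a3, 0.0386 for Gria3, 0.0447 for 1700007K13Rik, Rny1 and Usp51, and 0.0455 for Sfn and Trp53inp1. Dglucy, Ttll6, Gria3, Ptp4a3, 1700007K13Rik and Trp53inp1 rose most and As3mt fell most in PGK12.1, Rny1 and Usp51 fell most in WD44, and Sfn rose most in E14.

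For 6 of 128 named genes 1 of the 7 paired differences stood apart from the other 6, where chance alone marks about 1 in 20. Pwwp3b stood at -0.80 in PGK12.1 pair 2, with the others at -0.49 to -0.35. Map2 stood at -0.63 in the same pair, with the others at -0.35 to -0.14. Ndufaf2 stood at -0.55 and Egln3 at -1.23 in WD44 pair 1, with the others at -0.23 to -0.06 and -0.43 to -0.11. Mtor stood at -0.35 and Ctsd at 0.04 in E14 pair 2, with the others at -0.18 to -0.11 and 0.26 to 0.38.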

How the results depend on the processing

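Without the replicate block 2365 probesets were shared, of which 2220 were among the 2249. In the other knockdowns, dropping the replicate block left 197 of 742 shared higher probesets called after NSL1 siRNA, and 18 higher and 28 lower after MOF and MSL1 siRNA. With array medians centred 1942 probesets were shared higher and 849 lower. At 1.2-fold 744 were shared (169 and 575), and without the line PGK12.1 837 were (204 and 633). Leaving out 1 pair gave 1831 to 2501 shared, 534 to 938 higher and 1297 to 1718 lower. Line differences numbered 1 without the filter, 226 at a mean of at least 7, 488 with trended, robust variance and 0 without the 2 experiments of 2 RNAi rounds. Kat8 was lower in every alternative run for it, at -1.07 to -0.76.

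The following list counts moved, beside those given with each gene group. With array medians centred they were 5 mitochondrial ribosome genes, 2 tRNA synthetase, 3 DNA repair, 3 peroxisomal, 2 Nodal and 46 X-linked genes lower, and 22 Zfp, 34 X-linked, 10 cytosolic ribosome, 7 autophagy, 6 complexes II to V, 5 mesoderm, 4 trophectoderm, 4 primitive endoderm, 5 feeder and 5 TSC and mTORC1 genes higher. After cyclic loess they were 7, 2, 3 (peroxisomal) and 3 (Nodal) lower and 20 Zfp higher, and after quantile normalization 7, 2 and 3 (Nodal) lower and 16 Zfp higher. Without the 2 experiments of 2 rounds they were 5 mitochondrial ribosome, 2 tRNA synthetase, 1 glutathione and 1 Nodal genes lower, and 6 p53 targets, 1 small nucleolar RNA and 4 Zfp genes higher. The cause was not tested. Of 128 named genes 59 kept their call in every alternative run and none changed sign. Leaving out each pair, 109 kept it throughout. Without PGK12.1 66 lost it, with 4 pairs left.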
